A study of Bos taurus with 4 samples.

Results

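The translation initiation and elongation factors are the proteins that bring the ribosome, the initiator tRNA and the mRNA together and then move the ribosome along the message. Their transcripts were measured by 130 of the 43653 non-control probes of a bovine array, for 49 of the 59 genes that the RefSeq gene table of ARS-UCD2.0 lists under symbols beginning with EIF1 to EIF6 or EEF. A probe was a member when its reference accession led to such a symbol, and the *eif2ak* kinases and the *eif4ebp* genes, which regulate initiation, were counted apart. No probe was matched for *eif2b5*, *eif3a*, *eif3f*, *eif4g1*, *eif4g3*, *eif4e1b*, *eif4enif1*, *eif5b*, *eef1d* and *eef1akmt2*, which are not analysed here. No threshold on the values entered the choice.

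RNA was taken from semitendinosus, a muscle of the hindquarter, of 4 Hereford (HER, beef) and 4 Holstein-Friesian (HF, dairy) bulls, all 15 months old, with no treatment in either group. Each of 4 dual-colour arrays held 1 HER and 1 HF bull, 1 in the Cy3 and the other in the Cy5 dye, and the arrays are called arrays 1 to 4 after their replicate numbers. The comparison asks which transcripts differ between muscle of a beef and of a dairy breed. The labels put HER in Cy3 and HF in Cy5, but a remark in them speaks of exchanged dyes and the study's tables run the other way, so that every value below is log2(Cy5/Cy3) and no breed is given the higher level. Every array had 1 dye orientation, so a dye effect cannot be told apart from the breed.

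Initiation begins when eIF2, bound to GTP, carries the initiator tRNA to the small ribosomal subunit, on which eIF1, eIF1A, eIF3 and eIF5 assemble. The eIF4 proteins bind the cap of the mRNA, unwind it and hand it to the subunit, and eIF2B then reloads eIF2 with GTP. In elongation, eEF1A delivers each aminoacyl-tRNA, the eEF1B subunits recharge eEF1A, and eEF2 shifts the ribosome by a codon. Skeletal muscle is among the tissues in which the muscle and nerve isoform of eEF1A, *eef1a2*, takes over from *eef1a1* after birth.

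The median signal was 129 to 160.5 in Cy5 and 77 to 138 in Cy3, with 76.7% to 82.1% and 65.2% to 76.3% of the spots well above background, and no spot was saturated. Of 10 skeletal muscle fibre markers, 8 were measured, all of them well above background in both channels on all 4 arrays, which fits the tissue label. None of the 8 was called, and their summed level was 20.6 to 20.8 log2 units in Cy5 and 20.4 to 20.6 in Cy3. Of 5 fibroblast markers, the collagen genes *col1a1* and *col3a1* were called lower in Cy5, at -2.05 and -1.68. The other 3 were not called, with *lum* at -0.77, *dcn* at 0.42 and *pdgfra* at 0.49, and the summed level was 14.8 to 15.6 in Cy5 and 15.4 to 16.4 in Cy3. The 4 measured macrophage markers lay above 0 without a call, with a summed level of 12.3 to 13.5 in Cy5 and 11.3 to 12.1 in Cy3. Of the smooth muscle markers 1 of 5 was called (*cnn1*, lower), and none of 4 adipocyte or 4 endothelial markers was. The adipocyte markers *fabp4*, *cidec*, *plin1* and *lep* were at -1.19, -0.67, -0.26 and 0.02, *fabp4* being below 0 on all 4 arrays. Their summed level was 8.8 to 10.1 in Cy5 and 8.9 to 12.1 in Cy3. The part of the other cell types in the values below was not tested, and in bulk muscle fewer cells of a type and less RNA per cell cannot be told apart.

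In muscle the translation factors as a group lay on neither side of 0 after loess. Of the 130 probes, 129 had signal well above background, in Cy5 or in Cy3, on every array and were tested, for 48 genes. The one left out was the only probe for *eif1ay*, which was not well above background in either channel on any array. Of the 129, 65 lay above 0 and 64 below, with a median log2 ratio of 0.00 and a range from -0.74 to 0.68. Of all 32608 tested probes, 17101 lay above 0 and 15507 below, with a median of 0.01. Probes for 1 gene are no independent measurements, so the counts of probes by complex below are descriptive only. At a Benjamini-Hochberg adjusted p under 0.05 in limma, 2 probes were higher in Cy5, 1 each for *eif1b* and *eif6*, where 1.97% of all tested probes were called higher, and no probe was lower, where 1.35% of all were, 3.32% together. That is 1.55% of the member probes, near the share on the array as a whole. At an unadjusted p under 0.05 the counts were 11 higher and 12 lower (8.53% and 9.3%), against 13.8% and 10.9% of all tested probes.

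The study's own criterion, a fold change of 1.3 or more at an unadjusted p no higher than 0.05, passed 7 member probes as higher and 8 as lower in limma (5.43% and 6.2%), against 7.96% and 6.48% of all tested probes. The 7 were 2 probes each for *eif6* and *eif4h* and 1 each for *eif1b*, *eif3b* and *eefsec*. The 8 were 3 probes for *eif4g2*, both probes for *eif2d* and 1 each for *eef1a2*, *eef1g* and *eif3e*. With the methods' t-test 6 were higher and 3 lower (4.65% and 2.33%, against 5.06% and 3.79% of all), and with median centring 98 were higher and none lower (76% of the member probes, against 37.4% higher and 3.96% lower of all). The count of lower probes was 4 without array 2, 14 without array 3 and 5 without array 4 (3.1%, 10.9% and 3.88%), where 6.25%, 6.73% and 5.64% of all tested probes were lower. All 4 arrays stood above 0 for 15 member probes (11.6%, against 18.3% of all) and below 0 for 14 (10.9%, against 14.5% of all).

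**Figure D1:**
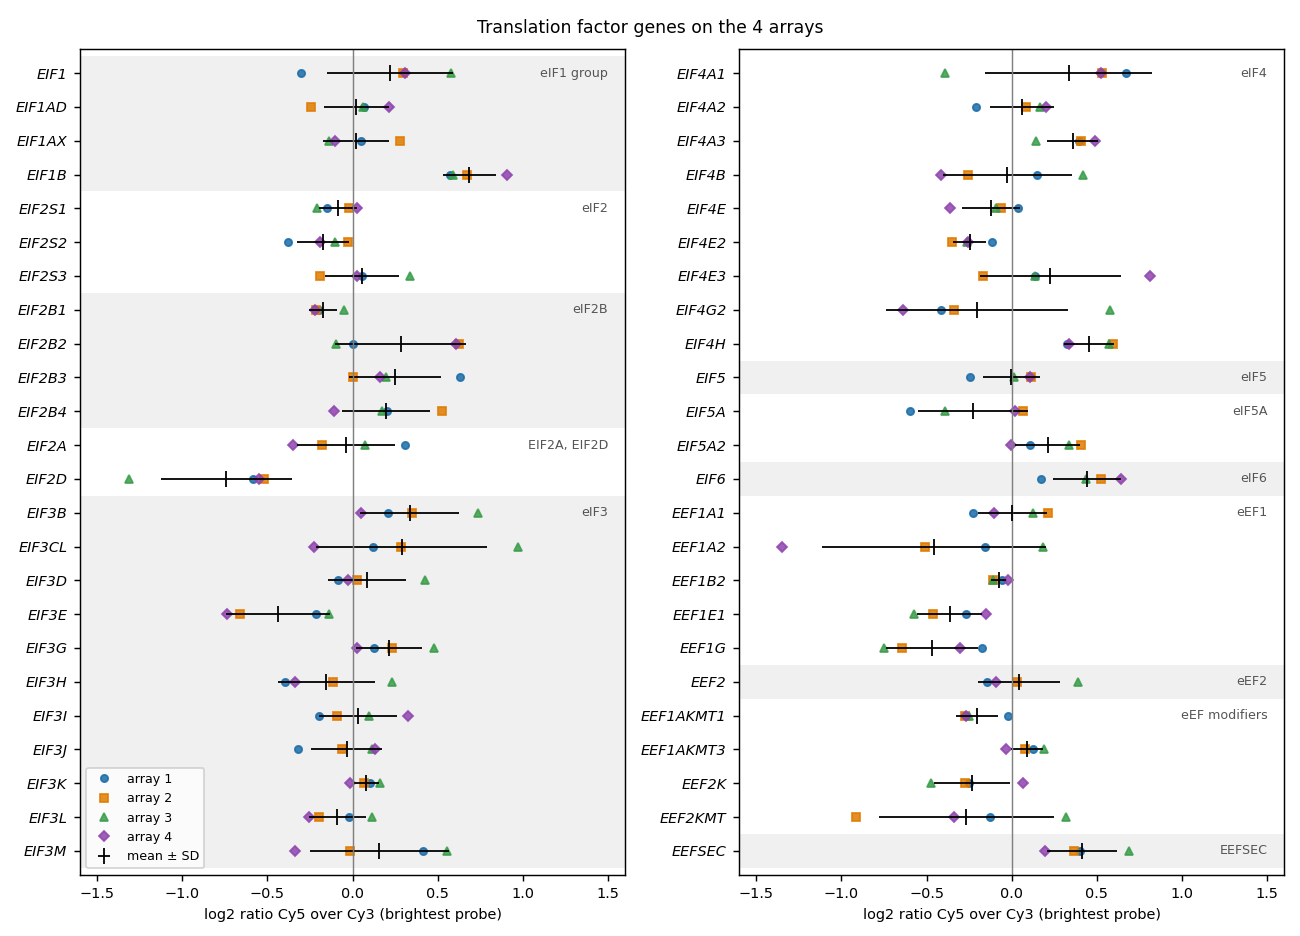
Log2 ratio of Cy5 over Cy3 after loess (horizontal axis) of the brightest probe of each of the 48 tested translation factor genes (vertical axis), set out by complex. Each array has its own coloured symbol, and the black bars give mean ± SD; *eif1b*, *eif6* and *eif4h* lie above 0 and *eif2d* below 0 on every array, while most genes cross 0, and with median centring 20 of the 22 genes with a mean below 0 here move above it.

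The direction of 21 of the 48 genes, each by its brightest probe, turned with how the dyes were balanced: 20 of the 22 below 0 after loess moved above it with median centring, *eif2d* and *eef2kmt* being the exceptions, and *eif5a2* moved below. After loess, which removes any trend of the ratio with brightness, the median of all tested probes was 0.01, whereas with each array only centred on its median it was 0.24. The member probes then had a median of 0.61, or 0.38 above that of all tested probes, and 81 were called higher (62.8%, against 30.7% of all) and none lower (against 2.18%), in place of 2 and none after loess. The median centred ratio rose with brightness over the whole array: it was -0.07 for all tested probes under 8 log2 units of mean intensity, 0.49 from 8 to 10, 0.64 from 10 to 12, 0.71 from 12 to 14 and 0.84 above. The translation factor probes were bright, with a median of 10.9 against 7.89 for all, and within those bins their centred medians were 0.02, 0.54, 0.60, 0.69 and 0.87. After loess the same bins held member medians of 0.05, 0.02, -0.04, -0.07 and 0.04. The number of member probes in the bins was 12, 32, 32, 34 and 19, so that the lowest and highest are thinly filled.

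**Figure D2:**
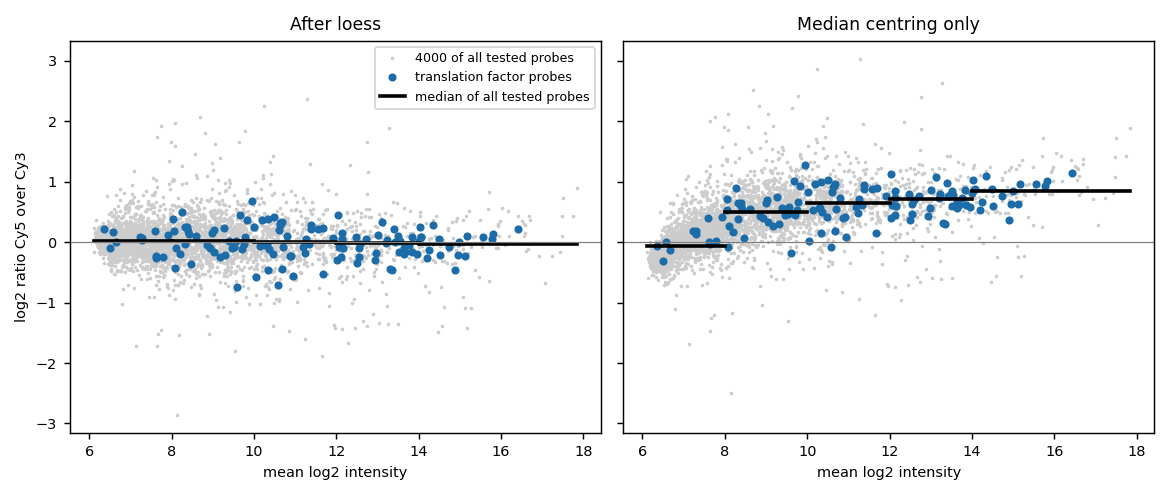
Log2 ratio of Cy5 over Cy3 (vertical axis) against mean log2 intensity of both channels (horizontal axis) after loess (left) and with median centring only (right). Blue points are the 129 translation factor probes, grey points 4000 of all tested probes and black bars the median of all tested probes in each brightness bin, flat near 0 on the left and rising from -0.07 to 0.84 on the right.

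*Eif1b*, a close relative of *eif1*, whose product guards the choice of the start codon, was higher in Cy5. Its single probe stood at 0.57, 0.67, 0.59 and 0.91 on arrays 1 to 4, with log2 intensities of 10.17, 10.39, 10.28 and 10.30 in Cy5 and 9.60, 9.72, 9.69 and 9.40 in Cy3. The channels did not overlap. The mean was 0.68 ± 0.155 (SD, n = 4, adjusted p = 0.0324 from limma), the highest of any member. The call was lost whichever array was left out (adjusted p = 0.0619 to 0.112 from limma), and a second probe for the gene was not among the members. Most higher calls of the whole array were lost too. With all 4 arrays 1.97% of all tested probes were called higher, and 0.0123% to 0.236% with 1 left out.

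The 3 probes for *eif1* itself lay at 0.22, 0.13 and 0.11, with array 1 below 0 and the other arrays above 0 in each. On arrays 1 to 4 the brightest was at -0.30, 0.29, 0.58 and 0.30. The difference of *eif1b* from *eif1* was 0.87, 0.38, 0.02 and 0.60, a mean of 0.47 ± 0.362 (SD, n = 4), above 0 on 4 of 4 arrays. By an exact two-sided sign-flip permutation test p was 0.125, the smallest that 4 arrays allow, and 0.583 adjusted over the 7 pairs of related genes compared. *Eif1ax*, which encodes the scanning factor eIF1A, had 3 probes between -0.01 and 0.04, and *eif1ad*, a gene with an eIF1A domain, was at 0.02 and 0.19. The eIF1 group thus had 8 of 9 probes above 0 after loess, beside 17101 of all 32608 tested probes. The median of the group was 0.11 after loess and 0.81 with median centring.

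*Eif6* encodes the factor that keeps the large ribosomal subunit from joining the small one before its time. All 3 of its probes lay above 0 on all 4 arrays. The brightest was at 0.17, 0.52, 0.44 and 0.64 on arrays 1 to 4, the next at 0.42, 0.39, 0.22 and 0.40, and the dimmest at 0.48, 0.58, 0.42 and 0.54. Their means were 0.44 ± 0.201, 0.36 ± 0.0919 and 0.51 ± 0.0721 (SD, n = 4), and the adjusted p from limma was 0.0682, 0.0635 and 0.0377. Only the dimmest was thus called. Its call too was lost whichever array was left out (adjusted p = 0.0716 to 0.132 from limma), as were most higher calls of the whole array. At that probe the Cy5 intensity was 8.35 to 8.64 log2 units and the Cy3 intensity 7.80 to 8.16. Averaged over its 3 probes the gene was at 0.44 with an adjusted p of 0.0392 from limma. *Eif6* stands in the study's supplementary tables, which were chosen on these samples, so its direction here is no independent evidence.

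**Figure D3:**
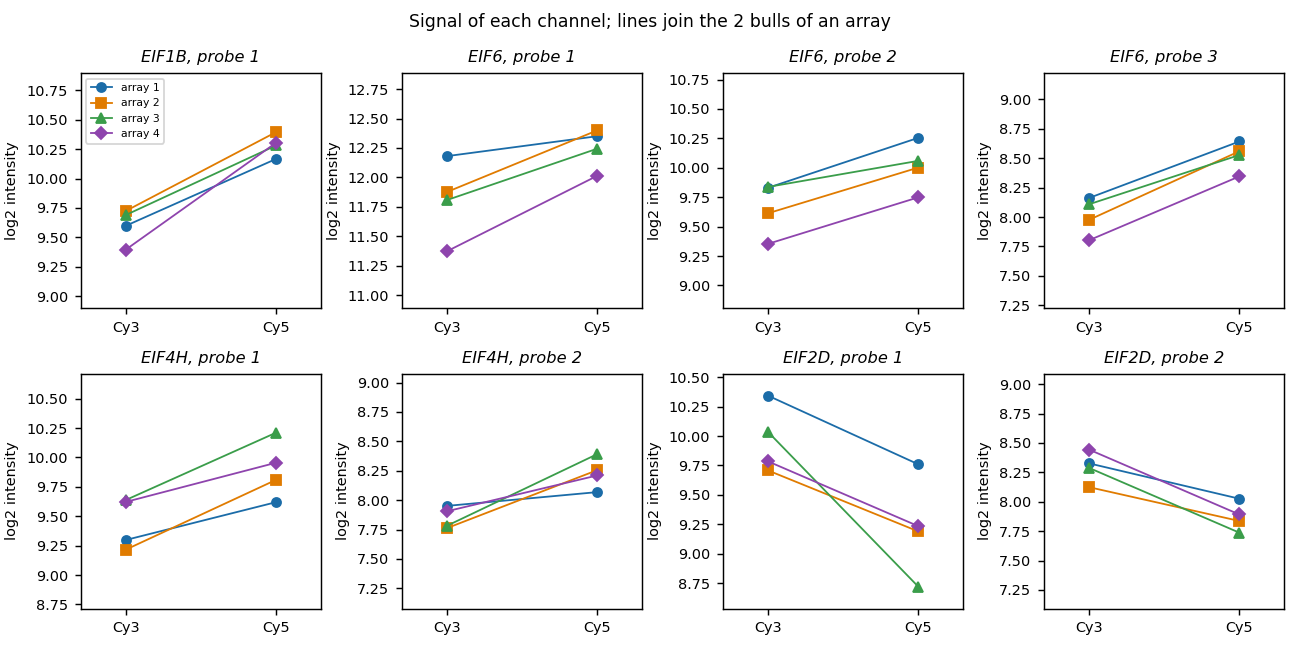
Normalized log2 intensity (vertical axis) in Cy3 and Cy5 (horizontal axis) at the probes for *eif1b*, *eif6*, *eif4h* and *eif2d*, each panel spanning 2 log2 units. Each line joins the 2 bulls of 1 array; all lines rise towards Cy5 for the first 3 genes and fall for *eif2d*, whose array 3 is the steepest at its brighter probe, and with median centring the mean ratio of *eif2d* is -0.18.

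*Eif2d*, whose product can bring tRNA to the ribosome without GTP and acts in ribosome recycling, had the lowest value of any member. Its brighter probe stood at -0.58, -0.52, -1.32 and -0.55 on arrays 1 to 4 and its dimmer one at -0.30, -0.29, -0.55 and -0.55. Cy5 was the lower channel on every array at both. The means were -0.74 ± 0.383 and -0.42 ± 0.149 (SD, n = 4). Neither was called (adjusted p = 0.0589 and 0.0596 from limma). The brighter probe was called with an intensity trend and a robust prior (adjusted p = 0.0484 from limma) and with separate channels (0.0433), and the mean over both probes, -0.58, had an adjusted p of 0.0438. With median centring it was at -0.18. *Eif2a*, an alternative initiator tRNA factor, was at -0.04 at both of its probes, from -0.35 to 0.31 on the single arrays.

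The eIF2 trimer itself varied little. *Eif2s1*, the α subunit that stress kinases phosphorylate, was at -0.09 and -0.10, and *eif2s3*, the GTP-binding γ subunit, at 0.06. *Eif2s2*, the β subunit, was at -0.17 and -0.25 (adjusted p = 0.296 and 0.136 from limma), below 0 on all 4 arrays at both probes after loess, with a mean of 0.56 for the brighter with median centring. The median over the 5 eIF2 probes was -0.10 after loess and 0.46 with median centring.

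In eIF2B, the exchange factor of eIF2, 8 of 10 probes lay above 0 after loess, beside 17101 of all 32608 tested probes. The median of the 10 was 0.17 and none was called. *Eif2b2* stood at 0.00, 0.62, -0.10 and 0.60 on arrays 1 to 4, high on arrays 2 and 4 alone, and its second probe at 0.10, 0.49, -0.04 and 0.45 ran the same way. *Eif2b3* was at 0.63, 0.00, 0.20 and 0.16 at its brightest probe, high on array 1 alone, and its other probes also had their highest value there. *Eif2b4* was at 0.20, 0.15 and -0.05, highest on array 2 at the first pair. *Eif2b1* had its probes on either side of 0, at -0.17 and 0.06. With median centring the median of the complex was 0.65.

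The eIF3 complex, the scaffold on the small subunit, was covered by 27 probes for 11 subunit genes, and none was called. After loess 20 of them lay above 0 and 7 below, beside 17101 and 15507 of all 32608 tested probes. The median of the complex was 0.09, and 0.09, 0.06, 0.33 and -0.11 on arrays 1 to 4, so that array 3 stood high and array 4 below 0. With median centring the median was 0.85. *Eif3b*, a scaffold subunit, had all 5 probes at or above 0.00, up to 0.38, the brightest at 0.20, 0.35, 0.73 and 0.05. Its second probe passed the study's criterion at 0.38 ± 0.332 (SD, n = 4, adjusted p = 0.162 from limma), again highest on array 3. *Eif3cl*, which resembles the *eif3c* gene, was at 0.12, 0.29, 0.97 and -0.22, and its 3 probes had means from 0.02 to 0.29. Array 3 was thus far above the others in that gene.

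*Eif3e*, a peripheral eIF3 subunit, had the lowest values of the complex, with its brighter probe at -0.21, -0.66, -0.14 and -0.74 and the other at 0.01, -0.66, -0.05 and -0.66. Arrays 2 and 4 were low and arrays 1 and 3 near 0. The means were -0.44 ± 0.306 and -0.34 ± 0.371 (SD, n = 4), the first with an adjusted p of 0.112 from limma and at 0.31 with median centring. With separate channels the brighter probe was called (0.0369). *Eif3g*, an RNA-binding subunit, was at 0.22 and 0.28. *Eif3i* was at 0.03 and 0.31, the latter above 0 on all 4 arrays (adjusted p = 0.115 from limma). *Eif3h* was at -0.16 at its brighter probe and 0.23 at the other, each with its highest value on array 3, and the brighter was at 0.61 with median centring. *Eif3m* ran from -0.52 on array 4 to 0.69 on array 3 over its 2 probes. The remaining subunits, *eif3d*, *eif3j*, *eif3k* and *eif3l*, lay between -0.09 and 0.12 in their means.

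**Figure D4:**
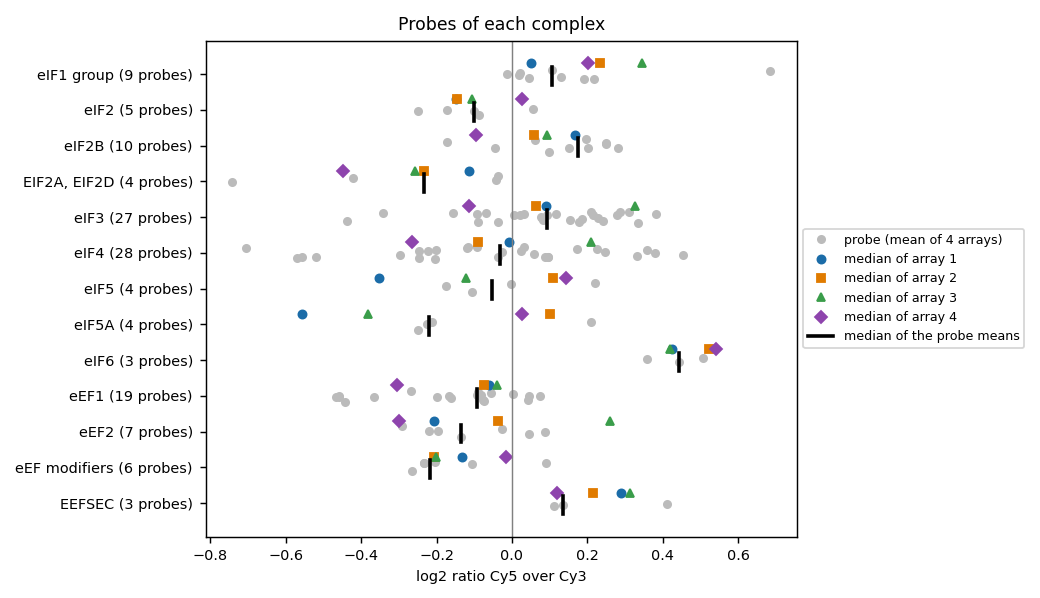
Log2 ratio of Cy5 over Cy3 after loess (horizontal axis) for the probes of each complex (vertical axis), grey for the mean of each probe over 4 arrays, black for their median and coloured for the median on each array. The eIF6 array medians sit between 0.42 and 0.54, those of eIF3 and eIF4 reach from array 4 below 0 to array 3 above it, and with median centring the median of every complex is above 0.

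The eIF4 group, which handles the mRNA cap, had 13 probes above 0 and 15 below after loess, with a median of -0.03 and 0.58 with median centring. *Eif4h*, a helper of the eIF4A helicase, was the highest, at 0.32, 0.59, 0.57 and 0.33 at its brighter probe and 0.12, 0.49, 0.61 and 0.30 at the other. All 8 values lay above 0. The means were 0.45 ± 0.148 and 0.38 ± 0.216 (SD, n = 4), just outside the call (adjusted p = 0.0538 and 0.0962 from limma). *Eif4a3*, the helicase of the exon junction complex, was at 0.39, 0.41, 0.14 and 0.49, with a mean of 0.36 ± 0.150 (SD, n = 4, adjusted p = 0.0802 from limma), and was called with separate channels (0.0308).

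The helicases proper differed between arrays. *Eif4a1* was at 0.67, 0.53, -0.39 and 0.52 at its brighter probe, so that array 3 alone was below 0, whereas the dimmer probe was at 0.57, 0.34, 0.05 and 0.03. *Eif4a2* had 5 probes from -0.20 to 0.09, the brightest at -0.21, 0.08, 0.17 and 0.20. The difference of *eif4a2* from *eif4a1* averaged -0.27 ± 0.605 (SD, n = 4) and that of *eif4a3* from *eif4a1* 0.03 ± 0.353, with exact p = 0.500 and 1 in the sign-flip permutation test. *Eif4b*, the other helper of the helicase, had means of -0.03, -0.09 and 0.10, all with array 3 high (0.41 to 0.51) and array 4 low (-0.61 to -0.42).

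*Eif4e*, the cap-binding protein, was at -0.12, -0.04 and -0.12 at its 3 probes, lowest on array 4 in each. *Eif4e2*, a relative that represses translation at the cap, was at -0.25, -0.22 and 0.03, and the brightest probe stood at -0.12, -0.35, -0.26 and -0.26 (adjusted p = 0.128 from limma). It was at 0.03 with median centring, and the gene is in the study's supplementary tables, chosen on these samples. None of the *eif4e2* probes passed the study's criterion in limma here, with a fold of 1.19 at the brightest. *Eif4e3* was at 0.23 and 0.17, with array 4 at 0.81 in the brighter probe. The differences of *eif4e2* and *eif4e3* from *eif4e* were -0.13 ± 0.166 and 0.35 ± 0.566 (SD, n = 4), with exact p = 0.250 and 0.375 in the sign-flip permutation test.

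*Eif4g2* encodes a relative of the eIF4G scaffold that lacks the site for eIF4E and serves cap-independent initiation. It had 7 probes, which share the transcript and are no independent measurements, and all had means below 0 after loess, from -0.71 to -0.21. The brightest was at -0.42, -0.34, 0.57 and -0.64 on arrays 1 to 4. Array 3 was above 0 in 6 of the 7 and array 4 was the lowest in each, down to -1.15. The lowest mean, -0.71 ± 0.456 (SD, n = 4, adjusted p = 0.0815 from limma), was that of the sixth in brightness, the one probe with all 4 arrays below 0, and the brightest was at -0.21 ± 0.535 (adjusted p = 0.589) and at 0.63 with median centring.

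*Eif5*, which triggers GTP hydrolysis by eIF2, had 4 probes between -0.17 and 0.22 that did not run alike, one of them at -0.41, 0.66, -0.24 and 0.87. *Eif5a*, the hypusine-bearing factor that helps ribosomes over difficult peptide bonds, was at -0.23, -0.21 and -0.25 after loess. Its brightest probe stood at -0.60, 0.07, -0.39 and 0.02 on arrays 1 to 4. Arrays 1 and 3 were low and arrays 2 and 4 near 0 at that probe, and with median centring it was at 0.62. *Eif5a2* was at 0.21, from a probe well above background in Cy3 on only 1 of 4 arrays, and at -0.07 with median centring. Its difference from *eif5a* was 0.44 ± 0.354 (SD, n = 4, exact p = 0.250 in the sign-flip permutation test).

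Among the elongation factors, 15 of 19 eEF1 probes lay below 0 after loess, beside 15507 of all 32608 tested probes, and none was called. The median was -0.09, from -0.30 on array 4 to -0.04 on array 3. Over the 5 genes, each by its brightest probe, it was -0.37, and with median centring the probe median was 0.60. *Eef1a1* had 9 of the 19 probes, which share the transcript and are no independent measurements, with means from -0.17 to 0.07. Array 4 was below 0 in all 9, from -0.52 to -0.10. The brightest was at -0.23, 0.21, 0.13 and -0.10. No *eef1a1* probe had an adjusted p under 0.390 in limma.

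*Eef1a2*, the muscle and nerve isoform, was at -0.46, -0.44 and -0.46 at its 3 probes after loess. The brightest was at -0.16, -0.51, 0.18 and -1.35 on arrays 1 to 4, the next at -0.21, -0.58, 0.12 and -1.10 and the dimmest at -0.60, -0.64, 0.14 and -0.74. Array 3 was above 0 at each and array 4 the lowest at each. The SDs were 0.657, 0.524 and 0.404 (n = 4), and the smallest adjusted p was 0.153 from limma. The brightest was at 0.30 with median centring. The difference of *eef1a2* from *eef1a1* was 0.07, -0.72, 0.05 and -1.24, a mean of -0.46 ± 0.640 (SD, n = 4), with exact p = 0.500 in the sign-flip permutation test. By these brightest probes the isoforms thus lay close together on arrays 1 and 3 and apart on arrays 2 and 4. On array 1 the *eef1a1* probes ran from -0.27 to 0.18, and the dimmest *eef1a2* probe, at -0.60, lay below all of them.

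*Eef1g*, a subunit of the exchange factor for eEF1A, was at -0.18, -0.64, -0.75 and -0.30 at its brightest probe, a mean of -0.47 ± 0.271 (SD, n = 4, adjusted p = 0.0848 from limma). Its other 3 probes had means of -0.27, -0.20 and -0.16, with array 1 above 0 and the others below. With separate channels the brightest was called (0.0443), and with median centring it was at 0.37. *Eef1b2*, another subunit, was at -0.08 ± 0.0426 and -0.06 ± 0.0452 (SD, n = 4), below 0 on 4 of 4 arrays at both probes after loess, with the smallest SDs of any member probe. With median centring its probes were called higher, at 0.76 and 0.72 (adjusted p = 0.00797 and 0.00984 from limma). *Eef1e1*, despite its name a part of the multi-tRNA-synthetase complex, was at -0.27, -0.47, -0.57 and -0.15, a mean of -0.37 ± 0.191 (SD, n = 4, adjusted p = 0.0925 from limma), and 0.06 with median centring. With separate channels *eef1e1* was called (0.0378). It too is in the study's tables, chosen on these samples, but with a fold of 1.29 its probe did not pass the study's criterion in limma here.

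*Eef2*, the translocase, had 7 probes with means from -0.29 to 0.09 after loess, and their array medians were -0.21, -0.04, 0.26 and -0.30. The brightest was at 0.04 ± 0.240 (SD, n = 4), and array 3 was the highest at all 7. *Eef2k*, the kinase that inhibits eEF2, was at -0.23 at both probes, with arrays 1 to 3 below 0 and array 4 above in each, and 0.41 with median centring. Of the methyltransferase genes, *eef1akmt1* was at -0.20 (adjusted p = 0.202 from limma), *eef1akmt3* at 0.09 and -0.11 and *eef2kmt* at -0.27 ± 0.513 (SD, n = 4), from -0.92 on array 2 to 0.32 on array 3. *Eefsec*, which delivers selenocysteine, was at 0.40, 0.36, 0.69 and 0.19 at its brightest probe (mean 0.41 ± 0.205, SD, n = 4, adjusted p = 0.0798 from limma), with the other probes at 0.14 and 0.11. With separate channels its brightest probe was called (0.0390).

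**Figure D5:**
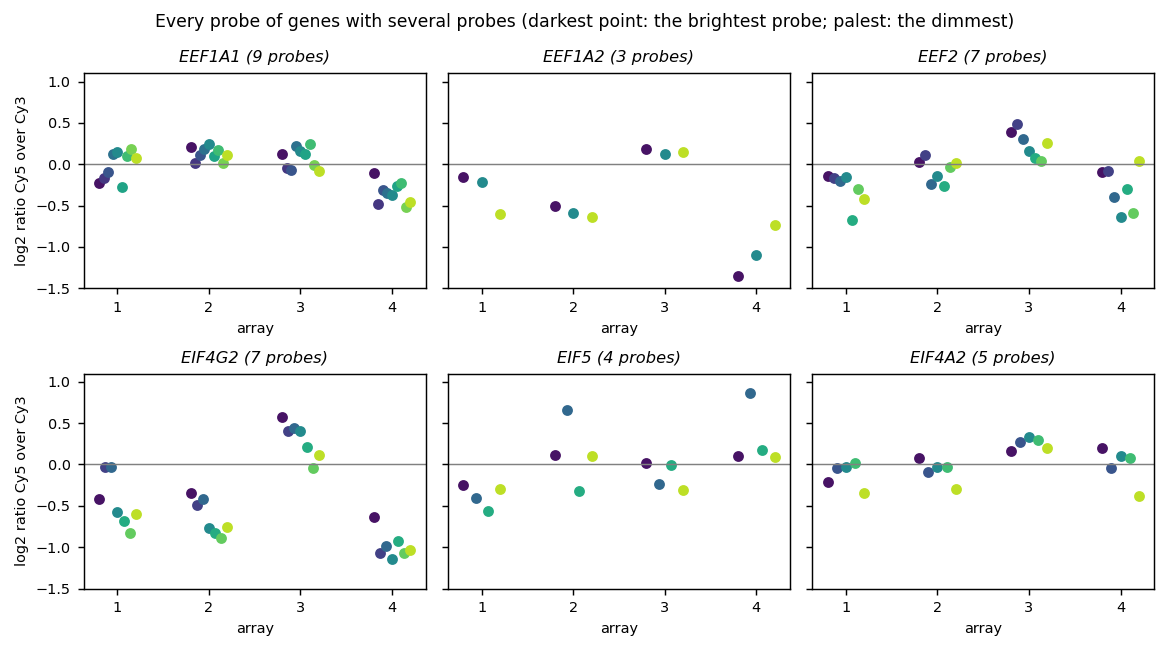
Log2 ratio of Cy5 over Cy3 after loess (vertical axis) on each array (horizontal axis) for every probe of 6 genes with several probes, the darkest point being the brightest probe. Probes of *eif4g2* and *eef1a2* move together from array to array, above 0 on array 3 (except 1 *eif4g2* probe) and lowest on array 4, whereas those of *eif5* spread; with median centring the brightest *eif4g2* and *eef1a2* probes average above 0.

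Of the 48 tested genes, 41 had several probes. All probes lay above 0 in 15 of them, below 0 in 13 and on both sides in 13. Every probe lay on 1 side of 0 on all 4 arrays in 9 of the 48 genes, namely *eif1b*, *eif4a3*, *eif4h* and *eif6* above and *eef1akmt1*, *eef1b2*, *eef1e1*, *eif2d* and *eif2s2* below after loess. Of these, *eif1b*, *eif4a3*, *eef1akmt1* and *eef1e1* had a single probe. No share of all genes is given for this rule. By probe, 11.6% of the members were above 0 on all 4 arrays and 10.9% below, against 18.3% and 14.5% of all tested probes. With each gene given by its brightest probe, only *eif1b* passed limma at an adjusted p under 0.05, where 4.46% of the 9426 genes did, 2.92% higher and 1.54% lower.

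Beside these factors, the regulators of initiation had 13 of 20 genes measured, 1 called higher and none lower, and a median of 0.12. The called gene was *eif4ebp1*, whose product holds eIF4E away from the cap complex, at 1.29, 0.98, 1.72 and 1.28 on arrays 1 to 4, while *eif4e* itself was at -0.12. Its mean was 1.32 ± 0.302 (SD, n = 4, adjusted p = 0.0214 from limma), its second probe was also called, at 1.53, and the call was lost whichever array was left out (adjusted p = 0.0570 to 0.0749). *Pdcd4*, which inhibits the eIF4A helicase, was at 0.37 (adjusted p = 0.0742 from limma), above 0 on 4 of 4 arrays. Of the mitochondrial translation factors, 9 of 10 were measured, with a median of 0.03, 1 called higher and none lower. This was the initiation factor gene *mtif3*, at 0.55, 0.74, 0.88 and 0.90, a mean of 0.77 ± 0.159 (SD, n = 4, adjusted p = 0.0282 from limma). Its second probe, at 0.32, was not called. The call of *mtif3* was also lost whichever array was left out (0.0560 to 0.103). Most higher calls of the whole array were lost in the same way, so these losses are not particular to *eif4ebp1* and *mtif3*. *Tufm*, the mitochondrial counterpart of eEF1A, was at 0.36 (adjusted p = 0.0660).

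Termination, recycling and ribosome-bound factors had 11 of 15 genes measured, none called and a median of -0.20. The ribosome rescue partners *hbs1l* and *pelo* lay on opposite sides, at -0.46 (adjusted p = 0.0513 from limma) and 0.59 (0.0935), each with 4 of 4 arrays on its side of 0, and with median centring *hbs1l* was at 0.22. *Hbs1l* is in the study's supplementary tables, chosen on these samples, so its direction here is no independent evidence. The enzymes that make diphthamide on eEF2 and hypusine on eIF5A had 6 of 8 genes measured, none called and a median of -0.06. Their smallest adjusted p values from limma were 0.385 for *dph2*, at -0.14, and 0.386 for *dph3*, also at -0.14.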

How the data were processed

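The authors deposited scanner output with intensity values. Per the file headers, Feature Extraction 10.7.3.1 read the median signal and local background of each spot, with array grids annotated on Btau_3.1. The log10 ratios of the series table, as deposited by the authors, equalled the scanner's log10 ratios of Cy5 over Cy3 (largest difference 0, median 0 on each array). From the median signals, background was corrected by normexp (offset 50), loess was run within each array (control spots had weight 0), 7 to 14 spots an array that the scanner had marked as outliers were dropped, and spots of a probe were averaged. Probes well above background in Cy5 or in Cy3 on all 4 arrays, with values on at least 3, were tested against 0 with limma 3.58.1 in R 4.3.3 (statmod 1.5.0), two-sided, adjusted by Benjamini-Hochberg over 32608 probes. Arrays were separate pairs of bulls on 1 slide, so no batch was set as a block, and 4 arrays limit the precision.

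Probes were named through RefSeq transcript accessions (23492 probes, of which 19155 were tested), and other probes stay unnamed here. The members and lists were chosen with earlier results of these data known. The rule for named genes took called members, members of the study's supplementary tables, the smallest p and the extremes of each complex, related gene sets and the leading genes of 4 lists; the remaining members are given because all belong to the set. Each gene is represented by its brightest probe unless another is named. Alternatives were other background corrections, the scanner's signals, the series table, median centring, a robust prior with an intensity trend, other filters on dim probes, separate channels (intraspot correlation 0.197), the methods' t-test, the mean over probes and leaving out each array. Related genes were compared over the arrays by an exact two-sided sign-flip permutation test, which was added after the data were seen. In simulated data of 32608 probes, 17.9%, 56.7% and 93.9% of probes changed 1.5-fold, 2-fold and 4-fold were called, all with the true sign, with 1 false call. The deposited files hold no probe sequences, so none is shown.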

Additional observations from a re-analysis of the deposited data

Results flagged for a closer look

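Among 62 values tested for an array that stood apart from the other 3, 5 did, where chance gives about 1 in 20. The measure was the gap to the nearest other array over the whole range. For *eif2d* it was 0.918, with array 3 at -1.32 and the others between -0.58 and -0.52. For *eef1akmt1* it was 0.911, with array 1 at -0.02 and the others between -0.27 and -0.25. For *eif2b1* it was 0.866, with array 3 at -0.05 and the others between -0.22 and -0.20. For *eif4a1* it was 0.862, with array 3 at -0.39 and the others between 0.52 and 0.67. For the median of the eEF1 probes it was 0.874, with array 4 at -0.30 and the others between -0.07 and -0.04.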

How the results depend on the processing

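The calls of *eif1b* and *eif6* held from the series table, the scanner-processed signals and plain subtraction, without background correction, without a filter, with the stricter filter, with the trend and a robust prior and with separate channels. With median centring 81 member probes were called higher (62.8%, against 30.7% of all tested probes). The study's criterion passed 98 (98 higher and 0 lower, against 7 and 8 after loess), or 76%, where 37.4% of all passed as higher. In that setting 35 member genes and 18 list genes were called. The medians with it were 0.61 over all member probes, 0.46 for eIF2, 0.85 for eIF3, 0.58 for eIF4, 0.60 for eEF1 and 0.57 for eEF2. The trend with a robust prior called 2 higher probes and 1 lower (1.55% and 0.775%, against 2.99% and 2.12% of all) and 2 genes. Separate channels called 5 higher and 6 lower probes (3.88% and 4.65%, against 5.35% and 4.5% of all), 7 genes and 8 list genes. The higher probes were for *eefsec*, *eif1b*, *eif4a3*, *eif4h* and *eif6*, and the lower for *eef1e1*, *eef1g*, *eif2d*, *eif3e* and *eif4g2*. The methods' t-test called no member probe after adjustment (0 higher, 0 genes, 0 list genes). Of all tested probes it called 0% higher and 0% lower. It passed 9 member probes at the study's criterion, 3 of them lower. The mean over probes called 3 genes, and the eEF1 median over genes was -0.37. No share of all genes is given for these settings, so the counts of genes say nothing particular about the members. Without 1 array, 0 member probes were called higher, with 0 genes and 0 list genes. Of all tested probes, 0.236%, 0.0583%, 0.0153% and 0.0123% were called higher without arrays 1, 2, 3 and 4, against 1.97% with all 4. The study's criterion passed 10 to 21 member probes with 1 array left out, 4 to 14 of them lower. The cause of these differences was not tested.

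By the brightest probe, the sign turned with median centring for *eef1a2* (0.30), *eef1akmt1* (0.17), *eef1b2* (0.76), *eef1e1* (0.060), *eef1g* (0.37), *eef2k* (0.41), *eif2a* (0.57), *eif2b1* (0.33), *eif2s1* (0.46), *eif2s2* (0.56), *eif3e* (0.31), *eif3h* (0.61), *eif3j* (0.62), *eif3l* (0.60), *eif4b* (0.69), *eif4e* (0.49), *eif4e2* (0.026), *eif4g2* (0.63), *eif5* (0.76), *eif5a* (0.62), *eif5a2* (-0.071), *dph2* (0.25), *dph3* (0.26), *eif2ak2* (0.067), *etf1* (0.31), *gspt1* (0.22) and *hbs1l* (0.22). Values near 0 also turned for *eif5* with plain subtraction (0.0016) and, with the scanner-processed signals or the series table, for *eif5* (0.043), *eif1ad* (-0.063), *eif3i* (-8.7e-05) and *eif3j* (0.039). Leaving out 1 array turned the sign of values that ranged from -0.068 to 0.078 for *eef1a1* (below 0 without array 2 or 3), -0.070 to 0.108 for *eef2* (without array 3), -0.041 to 0.112 for *eif1ad* (without array 4), -0.067 to 0.074 for *eif1ax* (without array 2), -0.152 to 0.067 for *eif2a* (above 0 without array 2 or 4), -0.037 to 0.140 for *eif2s3* (without array 3), -0.030 to 0.139 for *eif3d* (without array 3), -0.064 to 0.110 for *eif3i* (without array 4), -0.091 to 0.060 for *eif3j* (above 0 without array 1), -0.175 to 0.103 for *eif4b* (above 0 without array 2 or 4) and -0.042 to 0.077 for *eif5* (above 0 without array 1). The main test was paired by array, since each ratio sets 1 HER bull against 1 HF bull. The labels give 1 group of arrays and no further pairing. In the simulated data 17.9% of the 67 probes changed 1.5-fold were called, so most changes of that size were missed there. How far this share holds for these 4 arrays was not tested.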

Other observations

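Genes of the stress response that acts on eIF2 are given here after their values were seen. The heme-regulated kinase gene *eif2ak1* was at 0.49 (adjusted p = 0.0846 from limma), the endoplasmic reticulum kinase gene *eif2ak3* at 0.41 (0.0847) and the RNA-activated kinase gene *eif2ak2* at -0.24 (0.224). *Ppp1r15a*, which brings a phosphatase to eIF2, was at 0.41 (0.159), and *atf4*, a transcription factor translated when eIF2 is phosphorylated, at 0.14 (0.527). None of the 5 was called in the main test. With separate channels *eif2ak1* and *eif2ak3* were called higher (adjusted p = 0.0314 and 0.0330 from limma), where 5.35% of all tested probes were. These are the brightest probes, and a second one was at 0.00 for *eif2ak1*, at -0.01 for *eif2ak3* and at 0.15 for *ppp1r15a*, while the lowest of 3 for *atf4* was at -0.36. With median centring *eif2ak1* was at 1.00, *eif2ak3* at 0.65, *ppp1r15a* at 0.48, *atf4* at 1.04 and *eif2ak2* at 0.07. In that setting *eif2ak1*, *eif2ak3* and *atf4* were called higher (adjusted p = 0.00726, 0.0101 and 0.00252 from limma), where 30.7% of all tested probes were. Of the termination factors, *etf1* was at -0.28 (0.231), and 0.31 with median centring, and *gspt1* at -0.37 (0.137), the latter below 0 on 4 of 4 arrays and at 0.22 with median centring.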
